A study of Papilio xuthus with 16 samples.

Results

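The epidermis of Papilio xuthus, a swallowtail butterfly whose caterpillar turns green at its last larval molt, was followed through the fourth molt at 4, 10 and 13 h after head capsule slippage, the forward slip of the old head capsule that marks the start of a molt. The members were the 6 arrays labelled as the fourth instar molt at these 3 stages, of 16 arrays in the series, chosen by their labelled stage. The series compared marked with unmarked epidermis in larvae that look like bird droppings and in larvae that become green. Every array was hybridized with 2 colours, Cy5 for the black marking and Cy3 for the plain green epidermis beside it. Each stage had 2 arrays. On array 1 the eyespot region of the third thoracic segment was set against unmarked epidermis of the second thoracic segment, called thorax here. On array 2 the V-shaped marking of abdominal segments 4 and 5 was set against unmarked epidermis of abdominal segments 3 and 4, called abdomen here. The titles of the arrays call the pattern mimetic, while their sources and tissues call it cryptic, and the tissues were followed. No number of larvae per sample, strain, sex or treatment is given in the labels, and the 3 groups differ only in stage.

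A molt runs on a pulse of ecdysteroids, the steroid hormones of insects. As the hormone rises and falls, the epidermis detaches from the old cuticle, secretes the outer layers of the new one and then the chitin-rich inner layers, while the old cuticle is digested by chitinases and proteases. Ecdysone acts through a nuclear receptor that switches on a short cascade of transcription factors, and juvenile hormone sets which stage the next cuticle will have. Pigments and the proteins that carry them are laid down within the same hours, so that the colour pattern is fixed before the old skin is shed.

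The array carried probes of 60 bases, and the sequences are given for probes of genes to which the results return, to show what was hybridized. Each lies inside the coding part of its gene, is written 5′ to 3′ in the sense of the mRNA and is in lower case throughout.
3-dehydroecdysone 3b-reductase (Px-0248): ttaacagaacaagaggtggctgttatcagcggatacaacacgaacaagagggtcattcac
takeout/JHBP like protein (Px-0207): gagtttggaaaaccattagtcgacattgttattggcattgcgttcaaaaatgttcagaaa
cuticular protein PxutCPG19C (Px-0222): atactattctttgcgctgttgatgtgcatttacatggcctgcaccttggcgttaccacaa
cuticular protein PxutCPG11 (Px-0025): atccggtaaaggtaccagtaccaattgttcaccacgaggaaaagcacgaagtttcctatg
osiris 18 (Px-0237): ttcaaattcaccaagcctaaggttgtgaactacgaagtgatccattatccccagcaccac

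The signal of each channel was scaled to one 75th percentile, and the 4 regions were followed in their own dye, so that each gene had 4 paired changes per step. Values of single genes are scaled signals, means over the probes of the gene on the log scale, and are given in the order eyespot, V-shaped marking, thorax and abdomen. A change is the mean log2 difference of the 4 regions ± their SD (n = 4 regions), and a gene was called higher or lower when its adjusted p in limma was under 0.05 over all 3146 genes tested. On simulated data the adjusted p-values of this fit came out somewhat too small, which touches calls near the threshold. The lists hold only genes with a name, 488 of those tested, so other members of these families can be among the 2658 unnamed sequences. Each stage has 1 sample per region, and the 4 regions share 2 hybridizations, so p-values measure the spread between regions rather than between independent groups of larvae. All 6 arrays lay on 1 slide, and the position of an array and its stage cannot be told apart. Marked regions were always in Cy5 and plain regions always in Cy3, without a dye swap. In levels of marked against plain regions, marking and dye therefore cannot be told apart. Both comparisons use the 10 h arrays, so that an error in these arrays would enter both with opposite sign.

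Between 78.0% and 82.4% of the P. xuthus probes were well above background in each channel, and no probe spot of these channels was saturated. Of the epidermal genes, chitin deacetylase 1, an enzyme that modifies cuticular chitin, had high signals in all 12 channels. It gave 52001 to 67090 at 4 h, 90255 to 130449 at 10 h and 75660 to 93082 at 13 h. Other epidermal genes, among them laccase2 and many cuticular protein genes, changed strongly with the stage, and some were near background at 1 or more stages. The fat body marker on the array, larval serum protein 1 gamma, was well above background in too few channels to be tested. The markers of muscle were measured in all channels, with a summed signal of 323855 to 1097725 at 4 h, 506404 to 973972 at 10 h and 688383 to 1022295 at 13 h over the 16 genes, so that muscle RNA was present in every channel. Of the markers of body part, sex combs reduced, a gene of the anterior thorax, gave 63.6, 30.9, 58.4 and 33.7 at 4 h, 229, 107, 194 and 91.4 at 10 h, and 105, 97, 85.1 and 93.2 at 13 h. It was higher in both thoracic regions than in both abdominal regions at 4 and 10 h, while at 13 h the ranges overlapped. Ultrabithorax, which the paper counts among genes too low to measure, gave 860 to 1374 at 4 h from 1 kept probe, with its highest value in the thorax. Abdominal A was too dim to be tested, so the labels of body part at 13 h could not be checked with these genes. A group of 16 genes had another order of regions at 13 h than at 4 and 10 h, which touches values of single regions and ratios of black over green at 13 h. The melanin gene yellow and the putative carotenoid binding protein Px-0220 were higher in both marked regions than in both plain regions at all 3 stages. Both separate marked from plain regions only.

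The step to 10 h changed most of the genes on the array. At 10 h, 1214 genes were called higher than at 4 h (38.6% of those tested) and 950 lower (30.2%), 68.8% in either direction, and 2142 of the 2164 called genes had the same sign in all 4 regions. More than 2-fold changes were called for 787 higher and 559 lower genes, and more than 16-fold changes for 149 higher and 103 lower genes. At 13 h, 322 genes were called higher than at 10 h (10.2%) and 511 lower (16.2%), 26.5% in either direction, and 832 of these 833 had the same sign in all regions. All 4 regions at 10 h lay above all 4 at 4 h in 35.0% of genes and below them in 28.6%, and for 13 over 10 h these shares were 13.1% and 19.9%. More than 2-fold changes in this step were called for 212 higher and 275 lower genes, and more than 16-fold changes for 11 higher and 2 lower genes. Without the scaling of channels the median of all genes was -0.08 in place of 0.14 for 10 over 4 h and 0.02 in place of -0.08 for 13 over 10 h. It left 1015 genes higher and 1106 lower at 10 h, 47.9% higher in place of 56.1% of those called, and quantile normalization left 1005 and 1118 (47.3% higher). At 13 h 388 genes were higher and 388 lower without scaling, 50% higher in place of 38.7%, and 380 and 409 after quantile normalization (48.2%). Which direction held more genes thus depended on the scaling for 10 over 4 h. For 13 over 10 h more genes were lower than higher with scaling and after quantile normalization, and the counts were equal without scaling. Single arrays moved the counts at 13 h. Without a 4 h array they were 546 to 554 higher and 870 to 882 lower genes, and without a 10 h array 186 to 192 higher and 267 to 295 lower. Without array 1 of 13 h 312 were lower, and without array 2 of 13 h 212 were higher and 294 lower. Across genes, the changes of regions on different arrays correlated with r of 0.905 to 0.941 for 10 over 4 h, and with r down to 0.366 (eyespot and abdomen) for 13 over 10 h. Genes are not independent replicates, and these correlations are descriptions.

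Ecdysone signalling genes moved in both directions in each step, and the largest change among the transcription factors was that of E74 at 10 h and those of E75A and E75B at 13 h. Of the 16 measured ecdysone and juvenile hormone genes, 4 were called higher and 7 lower at 10 h than at 4 h, with a median log2 difference of -0.31 beside 0.14 over all genes. The share called, 68.8%, was that of all genes. At 13 h, 5 were higher and 3 lower than at 10 h (50% called, beside 26.5% of all genes), with a median of 0.28 beside -0.08. JH epoxide hydrolase 2, which inactivates juvenile hormone, was on the array and too dim to be tested. In this bulk tissue, fewer cells that express a gene and less of its RNA per cell cannot be told apart.

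**Figure D1:**
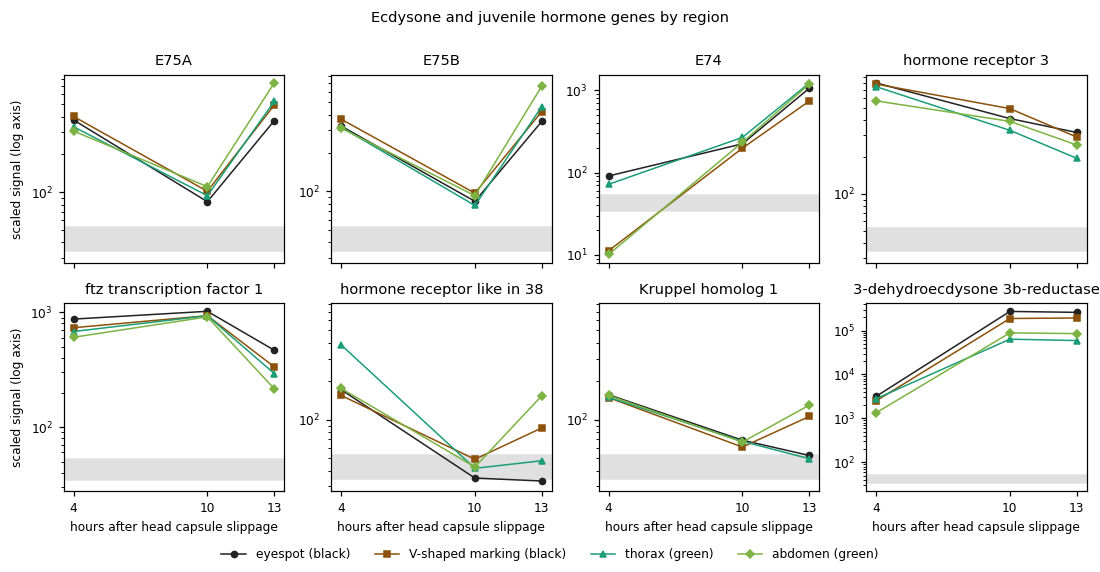
Scaled signal (log axis) of 8 ecdysone and juvenile hormone genes in the 4 regions at 4, 10 and 13 h after head capsule slippage, 1 point per channel, with the grey band from 34.3 to 53, the lowest signals well above background before scaling. E75A and E75B dip at 10 h, E74 climbs at each step, and 3-dehydroecdysone 3b-reductase stays high from 10 h on.

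E75, an early response gene of ecdysone that encodes a nuclear receptor, dipped at 10 h and returned at 13 h. E75A (Px-4044) gave 376, 401, 332 and 307 at 4 h, 84.3, 102, 94.1 and 111 at 10 h, and 371, 494, 528 and 741 at 13 h. All 4 regions were lowest at 10 h, without overlap with either neighbouring stage. The log2 difference of 10 over 4 h was -1.85 ± 0.29 (adjusted p = 0.000122), and that of 13 over 10 h was 2.41 ± 0.26 (adjusted p = 0.000215). E75B (Px-4045), an isoform from the same gene, gave 325, 368, 319 and 313 at 4 h, 83.6, 96.8, 77.5 and 92.5 at 10 h, and 353, 422, 461 and 667 at 13 h, with changes of -1.92 ± 0.12 (adjusted p = 5.73e-05) and 2.41 ± 0.37 (adjusted p = 0.000139). E75D (Px-4046) fell less, by 0.71 ± 0.38 (adjusted p = 0.0461), a call that was lost in 9 of 21 alternatives (adjusted p up to 0.221), among them without either 10 h array. It was higher at 13 h by 1.99 ± 0.35 (adjusted p = 0.00127). The isoforms share part of their sequence, and the extent to which their probes read each other's transcripts was not tested.

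E74 (Px-4043), an early gene that encodes an ETS transcription factor, rose at each step. Its signals were 91, 11.2, 72.1 and 10.1 at 4 h, 224, 198, 268 and 234 at 10 h, and 1063, 742, 1228 and 1191 at 13 h, from 1 probe free of outlier spots. At 4 h the 2 abdominal regions were not well above background. The log2 difference was 2.97 ± 1.61 (adjusted p = 0.00193) for 10 over 4 h and 2.17 ± 0.19 (adjusted p = 0.0252) for 13 over 10 h. The second call was lost in 6 of 20 alternatives (adjusted p up to 0.267), among them without array 1 of 10 h and without either 13 h array. Hormone receptor 3 (Px-4054), which in Drosophila links the early genes to ftz-f1, fell at each step. It gave 799, 782, 745 and 571 at 4 h, 410, 494, 329 and 389 at 10 h, and 316, 290, 195 and 250 at 13 h, and the ranges of the 3 stages did not overlap. Its changes were -0.84 ± 0.29 (adjusted p = 0.00173) and -0.64 ± 0.18 (adjusted p = 0.0205). The second call was lost in 9 of 21 alternatives (adjusted p up to 0.179), among them without any 1 of the 4 arrays at 10 and 13 h.

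The gene ftz transcription factor 1 (Px-4052) is known from Drosophila as a competence factor expressed when the hormone has fallen. It gave 874, 735, 681 and 607 at 4 h, 1022, 936, 935 and 914 at 10 h, and 468, 335, 293 and 216 at 13 h. The change at 10 h was 0.40 ± 0.16 (adjusted p = 0.0628), not called although all 4 regions were higher. Its change at 13 h was -1.59 ± 0.40 (adjusted p = 0.000429). Hormone receptor like in 38 (Px-4056), a nuclear receptor that in Drosophila pairs with ultraspiracle, gave 172, 155, 386 and 176 at 4 h, 34.9, 49, 41.6 and 42.6 at 10 h, and 33.1, 86.2, 47.7 and 154 at 13 h. It was lower at 10 h (-2.31 ± 0.66, adjusted p = 0.00197). Its changes at 13 h were -0.08, 0.82, 0.20 and 1.86 in the 4 regions and were not called on average (adjusted p = 0.296). The broad-complex (Px-4031), a regulator of metamorphosis, was lower at 10 h (-1.18 ± 0.57, adjusted p = 0.0013) and not called at 13 h (0.33 ± 0.25, adjusted p = 0.302).

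Of the receptor isoforms, A was called at 10 h and B1 at 13 h. Ecdysone receptor A (Px-4047) had 88.2 to 151 at 10 h, against 54.7 to 75.3 at 4 h, a difference of 0.73 ± 0.33 (adjusted p = 0.0159) that was lost in 8 of 21 alternatives (adjusted p up to 0.193), among them without array 1 of 4 h and without array 1 of 10 h. Its change at 13 h was -0.61 ± 0.42 (adjusted p = 0.0758). Ecdysone receptor B1 (Px-4048) was not called at 10 h (0.08 ± 0.43, adjusted p = 0.81). It was below background in all regions at 13 h, at least 1.11-fold lower than at 10 h (adjusted p = 0.00844), and this call was lost in 5 of 20 alternatives (adjusted p up to 0.383). Hepatocyte nuclear factor 4 (Px-4053) was higher at 13 h by 0.94 ± 0.29 (adjusted p = 0.0168), lost in 6 of 21 alternatives (adjusted p up to 0.113). Hormone receptor 4 (Px-4055) was called in neither step (-0.74 ± 1.21 and 1.36 ± 1.07, adjusted p = 0.169 and 0.0542). Cryptocephal (Px-0351), a transcription factor needed for molting in Drosophila, varied least, with 0.13 ± 0.12 (adjusted p = 0.3) and 0.11 ± 0.05 (adjusted p = 0.511).

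The largest change of the list was that of 3-dehydroecdysone 3b-reductase (Px-0248), which converts 3-dehydroecdysone into ecdysone. Its signals were 3173, 2503, 2804 and 1343 at 4 h, 271918, 187620, 63538 and 88487 at 10 h, and 258974, 193234, 59111 and 85123 at 13 h. The 4 regions at 10 h lay far above the 4 regions at 4 h, and both marked regions were above both plain regions at 10 and 13 h. The log2 difference was 5.80 ± 0.88 (adjusted p = 4.34e-06) for 10 over 4 h, 55.6-fold, and -0.05 ± 0.06 (adjusted p = 0.952) for 13 over 10 h. The probe printed above gave 5.91 ± 0.84 and -0.04 ± 0.11. Farnesyl pyrophosphate synthase (Px-4050), an enzyme of the pathway that leads to juvenile hormone, was higher at 10 h by 1.17 ± 0.94 (adjusted p = 0.0398), lost in 9 of 21 alternatives (adjusted p up to 0.166). Kruppel homolog 1 (Px-4059), a response gene of juvenile hormone, gave 157, 149, 150 and 155 at 4 h, 69.1, 61.1, 67.7 and 66.8 at 10 h, and 52.5, 106, 49.5 and 130 at 13 h. It was lower at 10 h in every region, -1.21 ± 0.06 (adjusted p = 0.00438), and this call was lost in 4 of 20 alternatives (adjusted p up to 0.181), among them without array 1 of 4 h and without array 2 of 10 h. At 13 h both thoracic regions were lower than at 10 h and both abdominal regions higher, and the mean change was not called (0.23 ± 0.75, adjusted p = 0.602).

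Cuticular protein genes made up some of the largest changes of the molt, and are given by class. The list holds only named genes, and the paper shows more cuticular protein genes on this array. Of 62 named and measured, 34 were called higher and 12 lower at 10 h than at 4 h, with a median log2 difference of 1.14. At 13 h 6 were called higher and 19 lower than at 10 h, with a median of -0.48. These are 74.2% and 40.3% of the list, beside 68.8% and 26.5% of all genes. The CPR class, whose Rebers and Riddiford domain binds chitin, had 20 of 28 measured genes higher and 5 lower at 10 h, with a median of 3.75 (3.14 with bounds for genes below background), and 3 higher and 10 lower at 13 h, with a median of -0.49. PxutCPR21 was too dim to be tested. In the glycine-rich CPG class 9 of 21 genes were higher and 5 lower at 10 h, with a median of 0.02, and 2 higher and 5 lower at 13 h, with a median of -0.45. The median of the CPG class at 10 h changed sign without scaling, to -0.19. Of 5 genes of the Tweedle class CPT, 2 were higher and 1 lower at 10 h and 2 lower at 13 h. Of 6 genes of class CPH, 2 were higher and 1 lower at 10 h and 1 higher and 2 lower at 13 h.

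**Figure D2:**
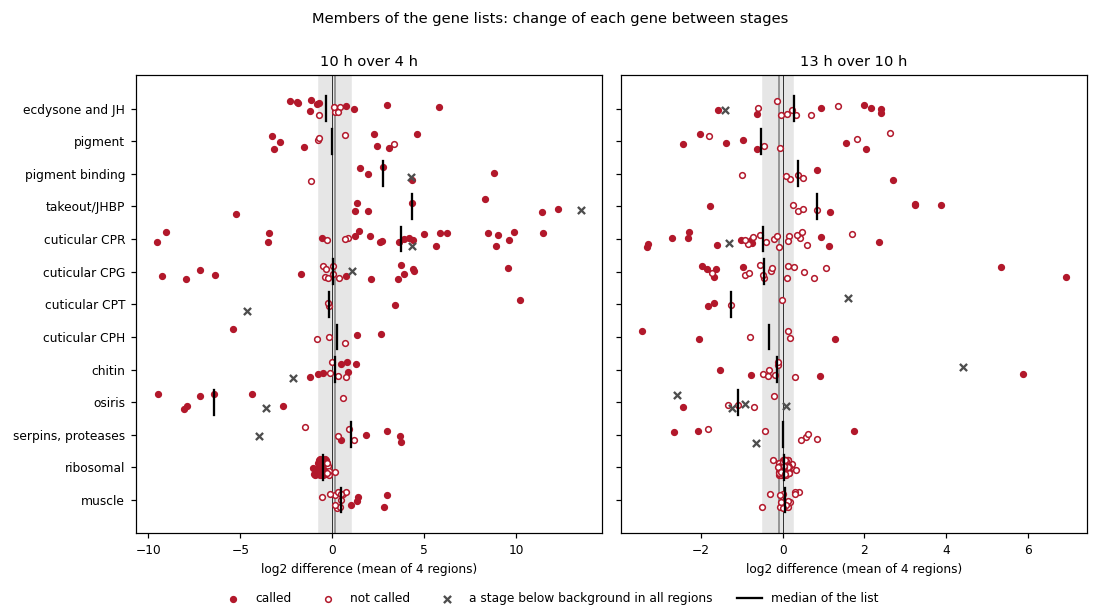
Log2 difference of each measured gene of 13 lists, 10 over 4 h on the left and 13 over 10 h on the right (mean of 4 regions), with filled points for called genes, open points for genes not called and crosses for genes below background in all 4 regions of a stage, whose fitted value is not a measured size. Black bars are the medians of the lists, and the grey band and line give the interquartile range (-0.72 to 1.03 and -0.47 to 0.24) and median of all 3146 genes, so that osiris at -6.45 and takeout/JHBP at 4.32 on the left can be read against it.

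Several CPR genes rose steeply between 4 and 10 h. PxutCPR6 (Px-0135) gave 20254, 56292, 79881 and 67155 at 10 h, against 9.13, 80.5, 7.32 and 17.7 at 4 h, and 1 region was well above background at 4 h. The difference was 11.47 ± 1.65 (adjusted p = 1.85e-06), the largest of the class, and its signals at 13 h were 13184 to 57099. PxutCPR41A (Px-0074) kept rising. It gave 59.7, 86.9, 29.7 and 29.3 at 4 h, 30936, 58152, 39803 and 46503 at 10 h, and 167987, 184850, 254125 and 300889 at 13 h, without overlap between any of the stages, and its changes were 9.86 ± 0.78 (adjusted p = 5.63e-07) and 2.37 ± 0.48 (adjusted p = 0.00623). The second call was lost without array 1 of 10 h (adjusted p = 0.0787). PxutCPR41C (Px-0126) was higher at 10 h by 9.59 ± 2.24 (adjusted p = 8.82e-05), with 119423 to 271188 at 10 h, against 28.7 to 2386 at 4 h. PxutCPR123 (Px-0051) went the other way. It gave 35.8, 42.3, 55.7 and 26.6 at 10 h, against 13224, 57741, 18467 and 47069 at 4 h, a difference of -9.53 ± 1.25 (adjusted p = 4.82e-07), and at 13 h 1 of the 4 regions was well above background.

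A group of strong CPG genes fell steeply by 10 h while others rose. PxutCPG8 (Px-0004) gave 922, 7002, 654 and 1283 at 10 h, against 260060, 249925, 213256 and 183479 at 4 h, a difference of -7.20 ± 1.46 (adjusted p = 1.11e-05), with the V-shaped marking highest at 10 h. PxutCPG7 (Px-0008) behaved alike, with -7.94 ± 1.30 (adjusted p = 4.78e-05) and a V-shaped marking of 3528 at 10 h beside 447 to 830 in the other regions. PxutCPG9 (Px-0063) had 26.9 to 351 at 10 h, against 36188 to 87406 at 4 h (-9.28 ± 1.10, adjusted p = 9.55e-07). Its further fall at 13 h (-1.86 ± 0.46, adjusted p = 0.0213) was lost in 8 of 20 alternatives (adjusted p up to 0.246). In the opposite direction PxutCPG21 (Px-0144) gave 79749, 87912, 74825 and 90552 at 10 h, against 119, 209, 55.5 and 102 at 4 h, a difference of 9.57 ± 0.71 (adjusted p = 1.01e-07). PxutCPG11 (Px-0025), whose probe is printed above, fell by 6.36 ± 0.36 at 10 h and by 1.64 ± 0.48 at 13 h (adjusted p = 1.3e-07 and 0.00115).

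Other CPG genes had their largest rise in the later step. PxutCPG29 (Px-4012) gave 10.8, 12.4, 8.65 and 11.1 at 4 h, 15.1, 21.1, 19.7 and 39 at 10 h, and 2117, 2537, 3248 and 3094 at 13 h. It was well above background in none of the regions at 4 h, in 1 at 10 h and in all 4 at 13 h, and the difference of 13 over 10 h was 6.93 ± 0.45 (adjusted p = 5.68e-06). PxutCPG19C (Px-0222) gave 562, 71.7, 152 and 28.5 at 4 h, 1477, 1674, 1209 and 1120 at 10 h, and 50875, 56101, 43584 and 72064 at 13 h. It rose at both steps without overlap, by 3.56 ± 1.73 (adjusted p = 0.00237) and 5.34 ± 0.45 (adjusted p = 0.0012), and its printed probe gave 3.99 ± 2.04 and 5.62 ± 0.52.

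Some cuticular genes are near copies, and for these the probes themselves limit what can be said. A probe of PxutCPG33A (Px-0301), which has 2 probes, and a probe of PxutCPG33B (Px-0280), which has 5, differ at 1 of their 60 bases, in capitals, C29G counted from the 5′ end of the PxutCPG33A probe.
PxutCPG33A: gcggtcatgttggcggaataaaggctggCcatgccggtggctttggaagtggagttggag
PxutCPG33B: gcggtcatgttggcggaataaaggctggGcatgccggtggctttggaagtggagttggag
Signals on this pair of probes cannot be assigned to one gene, and they gave 3.88 ± 0.10 and 3.72 ± 0.18 for 10 over 4 h and 0.11 ± 0.55 and 0.26 ± 0.53 for 13 over 10 h. Over all probes of PxutCPG33A the change at 10 h was 3.61 to 3.88, and over those of PxutCPG33B it was 3.69 to 4.11. A probe each of PxutCPG4 (Px-0193) and PxutCPG3 (Px-0167) share a run of 15 bases, in capitals.
PxutCPG4: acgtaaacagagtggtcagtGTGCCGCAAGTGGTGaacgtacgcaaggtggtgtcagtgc
PxutCPG3: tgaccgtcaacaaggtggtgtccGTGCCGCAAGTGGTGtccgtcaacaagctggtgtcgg
This probe of PxutCPG4 gave 1.09 ± 0.29 for 10 over 4 h, the lowest of the 5 probes of its gene, which ranged up to 6.10, and the probe of PxutCPG3 gave 0.20 ± 0.20. Whether the low value comes from the shared run was not tested.

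The classes CPT, CPH and CPFL were small and mixed. PxutCPT1 (Px-0067) gave 336526, 278141, 392748 and 349421 at 10 h, against 218, 1172, 135 and 194 at 4 h, a difference of 10.20 ± 1.59 (adjusted p = 3.02e-06), and stayed at 281587 to 437095 at 13 h. PxutCPT4 (Px-0225) was higher at 10 h by 3.42 ± 1.17 (adjusted p = 0.000294), and PxutCPT2 (Px-0006) was lower at 13 h (-1.83 ± 0.76, adjusted p = 0.00366) after no call at 10 h. PxutCPT5 (Px-0218) was measured at 4 h and below background in all 4 regions at 10 h, at least 6.09-fold lower (adjusted p = 0.00807), lost in 2 of 20 alternatives (adjusted p up to 0.0724). PxutCPH33 (Px-0076) was lower at 10 h (-5.42 ± 1.88, adjusted p = 0.000159). PxutCPH6 (Px-0259) was higher at 10 h by 2.66 ± 0.66 (adjusted p = 6.49e-05) and at 13 h by 1.29 ± 0.41 (adjusted p = 0.0113), and this second call was lost without array 2 of 10 h (adjusted p = 0.117) and without array 1 of 13 h (adjusted p = 0.1). PxutCPH19 (Px-0233) had the largest fall of the named genes at 13 h, 424, 675, 671 and 363 at 13 h, against 6436, 6808, 5426 and 4224 at 10 h, a difference of -3.45 ± 0.38 (adjusted p = 0.0014). PxutCPH18 (Px-0317) fell at 13 h by 2.05 ± 0.45 (adjusted p = 0.00537), lost in 3 of 21 alternatives (adjusted p up to 0.0701). Of the CPFL genes, PxutCPFL6Bb (Px-4007) was higher at 10 h by 0.81 ± 0.84 (adjusted p = 0.0435), lost in 11 of 21 alternatives (adjusted p up to 0.439).

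**Figure D3:**
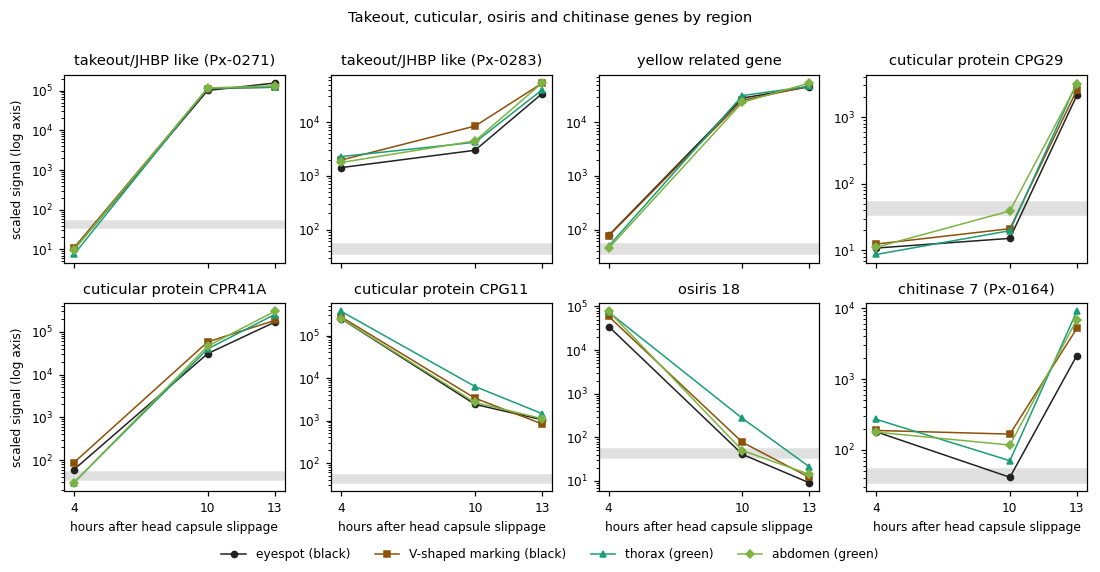
Scaled signal (log axis) of 2 takeout/JHBP genes, the yellow related gene, 3 cuticular protein genes, osiris 18 and a chitinase in the 4 regions at 4, 10 and 13 h, 1 point per channel, with the grey band as for the hormone genes. Px-0271, the yellow related gene and PxutCPR41A rise steeply by 10 h, PxutCPG29 and chitinase 7 rise at 13 h, and PxutCPG11 and osiris 18 fall at 10 h.

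The largest changes among the chitin genes were those of 2 chitinases, enzymes that digest the chitin of the old cuticle. Of 12 measured chitin genes, 4 were higher and 4 lower at 10 h, with a median of 0.15 that became -0.07 without scaling, and 3 were higher and 2 lower at 13 h, with a median of -0.15. The shares called were 66.7% and 41.7%, beside 68.8% and 26.5% of all genes. Chitinase 7 (Px-0164) gave 180, 188, 270 and 178 at 4 h, 41.1, 167, 70.4 and 117 at 10 h, and 2136, 5165, 8985 and 6860 at 13 h. It was higher at 13 h than at 10 h by 5.88 ± 0.84 (adjusted p = 8.87e-05), 58.9-fold. Its smaller fall at 10 h (-1.21 ± 0.97, adjusted p = 0.0301) was lost in 7 of 21 alternatives (adjusted p up to 0.339). Chitinase 5 (Px-0229) gave 114, 282, 433 and 422 at 13 h, against 14.9, 9.94, 18.6 and 10.4 at 10 h. Below background in all regions at 10 h, it was at least 5.91-fold higher at 13 h than at 10 h (adjusted p = 0.000395). A second gene named chitinase 7 (Px-0425) was called in neither step (0.00 ± 0.58 and 0.31 ± 0.19, adjusted p = 0.989 and 0.398). Obstructor-A (Px-0376), a chitin-binding organizer of the cuticle in Drosophila, was lower at 13 h (-1.53 ± 0.65, adjusted p = 0.0112), lost in 3 of 21 alternatives (adjusted p up to 0.117). A chitin binding peritrophin-A protein (Px-0310) was higher at 10 h by 1.27 ± 1.01 (adjusted p = 0.0231), lost in 7 of 21 alternatives (adjusted p up to 0.194).

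The osiris genes, an insect family of membrane-associated proteins expressed in cuticle-secreting cells, fell almost as 1 group. Of 9 measured members, 8 were lower at 10 h than at 4 h and none higher (88.9%), beside 30.2% called lower over all genes, with a median of -6.45. At 13 h 3 were lower (33.3%), with a median of -1.10, beside 16.2% called lower and 26.5% called in either direction over all genes. With the normexp background correction 0 were called lower at 13 h. Osiris 18 (Px-0237) gave 34532, 58677, 73725 and 76652 at 4 h, 40.7, 76.7, 271 and 49.8 at 10 h, and 9.08, 12.1, 21.2 and 14.2 at 13 h. The fall at 10 h was -9.50 ± 1.04 (adjusted p = 3.29e-07), and -10.08 ± 1.29 on the printed probe. At 13 h it was below background in all regions, at least 1.76-fold lower than at 10 h (adjusted p = 0.00233), lost in 2 of 20 alternatives (adjusted p up to 0.139). Osiris 9A (Px-0052) had 13.7 to 32.8 at 10 h, against 3614 to 12705 at 4 h (-8.08 ± 0.65, adjusted p = 4.44e-07), with osiris 9D (Px-0077) at -7.89 ± 1.23 (adjusted p = 1.96e-06) and osiris 9B (Px-0084) at -7.19 ± 1.00 (adjusted p = 2.21e-06). Osiris 2 (Px-0326) was the exception, with 0.56 ± 0.55 (adjusted p = 0.131), not called. Of the zona pellucida and apical matrix genes, which shape the apical surface of epidermal cells, none of 4 was called by limma in either step. Over all genes 68.8% were called at 10 h and 26.5% at 13 h. At an unadjusted p under 0.05 there were 1 at 10 h and 2 at 13 h, and dumpy was too dim to be tested.

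Takeout/JHBP genes encode small secreted proteins that are related to carriers of juvenile hormone, and of the 9 named ones 8 were higher (beside 38.6% of all genes) and 1 lower at 10 h, with a median of 4.32 beside 0.14 over all genes. At 13 h 4 were higher and 1 lower, 55.6% called beside 26.5% of all genes, with a median of 0.83. The takeout/JHBP like protein Px-0271 gave 9.99, 10.9, 7.46 and 9.76 at 4 h, 101283, 112242, 115243 and 116990 at 10 h, and 155192, 122160, 121912 and 132155 at 13 h. It was below background in all regions at 4 h and at least 2790-fold higher at 10 h (adjusted p = 4.21e-10). Px-0064 had 119217 to 251051 at 10 h, against 10.5 to 350 at 4 h, where 2 regions were well above background (12.26 ± 2.26, adjusted p = 4.9e-06), and Px-0150 rose by 11.42 ± 0.81 (adjusted p = 9.52e-08). Its further rise at 13 h (1.16 ± 0.30, adjusted p = 0.0434) was lost in 11 of 20 alternatives (adjusted p up to 0.306). Px-0207, whose probe is printed above, rose at both steps. Its signals were 14.6, 17.3, 34.5 and 14.1 at 4 h, 1766, 8654, 7068 and 11388 at 10 h, and 30644, 54241, 74212 and 79445 at 13 h, with changes of 8.31 ± 1.23 (adjusted p = 8.49e-07) and 3.24 ± 0.67 (adjusted p = 0.00097). Px-0283 and Px-0404 changed mainly in the later step, by 3.24 ± 0.42 (adjusted p = 9.23e-05) and 3.88 ± 0.59 (adjusted p = 0.000545). At 13 h Px-0283 had 33717 to 53333, against 2991 to 8445 at 10 h. The rise of Px-0404 at 10 h (1.23 ± 0.60, adjusted p = 0.0344) was lost in 7 of 21 alternatives (adjusted p up to 0.137), among them without either 10 h array.

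Genes of named or putative binding proteins for the blue and yellow pigments of the green larva were mostly higher at 10 h. Of 7 measured, 6 were higher and none lower, with a median of 2.74, and 2 were higher at 13 h, with a median of 0.37. These are 85.7% and 28.6% of the list, beside 68.8% and 26.5% of all genes, so that the share at 13 h was near that of all genes. The yellow related gene (Px-0080), known from the yellow and green colour of Papilio larvae, gave 78, 76.3, 49.3 and 45 at 4 h, 28505, 25759, 31740 and 23782 at 10 h, and 46127, 47686, 47161 and 54244 at 13 h. Its rise at 10 h was 8.82 ± 0.44 (adjusted p = 3.3e-08), 453-fold. The rise at 13 h (0.84 ± 0.27, adjusted p = 0.0311) was lost in 8 of 21 alternatives (adjusted p up to 0.28), among them without any 1 of the 4 arrays at 10 and 13 h. Bilin binding protein 1 (Px-0010), a lipocalin and putative carrier of a blue bile pigment, gave 76759, 100132, 270818 and 192096 at 10 h, against 33948, 33040, 117118 and 46687 at 4 h. It was higher by 1.51 ± 0.40 (adjusted p = 0.000711) with the 2 plain regions above the 2 marked regions at each of these stages. Bilin binding protein 2 (Px-0024) was higher by 2.74 ± 0.83 (adjusted p = 0.000169) and bilin binding protein 3 (Px-0106) was not called (-1.17 ± 0.86, adjusted p = 0.132). Bilin binding protein 4 (Px-4030) was below background in all regions at 4 h. It was at least 5.42-fold higher at 10 h (adjusted p = 8.82e-05) and rose again at 13 h by 2.71 ± 1.13 (adjusted p = 0.00444), to 590 to 3029. The 2 putative carotenoid binding proteins of the takeout family rose at 10 h, Px-0019 by 4.32 ± 0.56 (adjusted p = 2.59e-06) and Px-0220 by 1.92 ± 0.89 (adjusted p = 0.00224). Px-0220 was far higher in the 2 marked regions at every stage, 88800, 94294, 1545 and 2355 at 10 h.

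**Figure D4:**
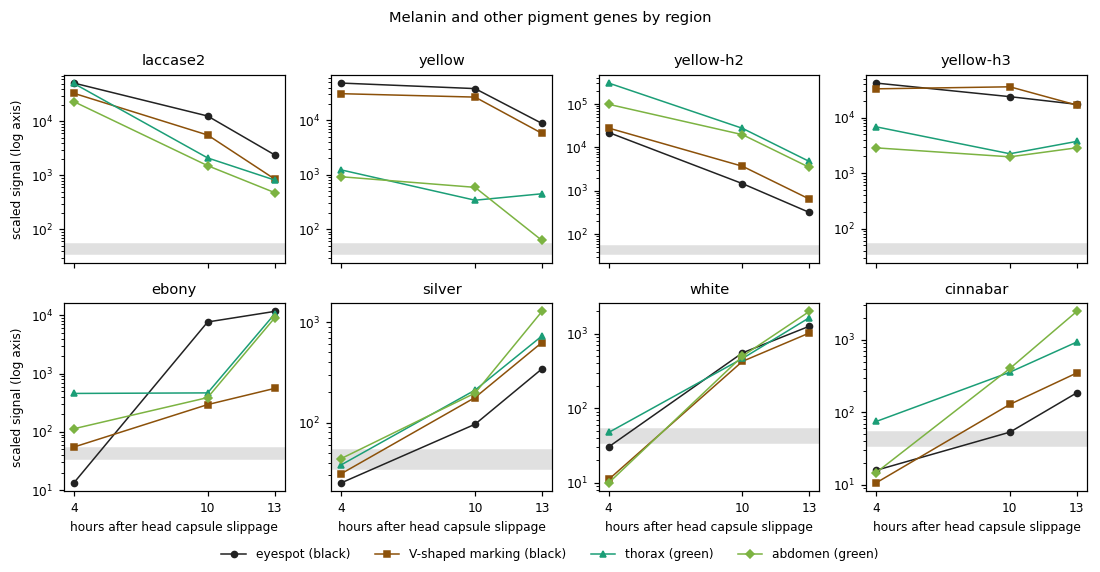
Scaled signal (log axis) of 8 melanin and other pigment genes in the 4 regions at 4, 10 and 13 h, 1 point per channel, with the grey band as for the hormone genes. Laccase2 and yellow-h2 fall at each step, silver climbs at each step, and the eyespot line of ebony crosses the others between 4 and 10 h.

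Melanin and pigment synthesis genes moved in both directions. Of 12 named and measured, 4 were higher and 4 lower at 10 h, with a median of 0.00, and 2 were higher and 6 lower at 13 h, with a median of -0.54. The share called was 66.7% in each step, beside 68.8% and 26.5% of all genes. Dopamine transporter and xanthine dehydrogenase 2 were too dim to be tested. Tyrosine hydroxylase, dopa decarboxylase, tan and GTP cyclohydrolase I, which also act in melanin synthesis, are not in this list. The paper reports high expression of tyrosine hydroxylase, dopa decarboxylase and tan in black markings in the later part of the molting period. The counts of the list therefore do not describe melanin synthesis as a whole. Laccase2 (Px-0292), the phenoloxidase that tans the cuticle, gave 51145, 33077, 50238 and 23165 at 4 h, 12559, 5586, 2103 and 1511 at 10 h, and 2405, 859, 821 and 481 at 13 h. It was lower at 10 h (-3.28 ± 1.18, adjusted p = 0.000337) and lower again at 13 h (-2.02 ± 0.63, adjusted p = 0.0141). The second call was lost in 5 of 21 alternatives (adjusted p up to 0.122), among them without array 2 of 10 h and without either 13 h array. Yellow-h2 (Px-0429) fell in all regions at both steps, -3.15 ± 0.69 (adjusted p = 1.42e-05) and -2.44 ± 0.16 (adjusted p = 0.000404). Yellow-e (Px-0200) fell at 10 h, -2.82 ± 0.71 (adjusted p = 7.42e-05). Catecholamines up (Px-4032), a regulator of dopamine synthesis in Drosophila, was lower at 10 h (-1.52 ± 0.25, adjusted p = 1.87e-05) and at 13 h (-0.63 ± 0.21, adjusted p = 0.00857), the second lost in 6 of 21 alternatives (adjusted p up to 0.098).

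Yellow (Px-0108), which is needed for black melanin in Drosophila, was higher in the 2 marked regions than in the 2 plain regions at every stage, 48591, 31004, 1229 and 921 at 4 h, 38470, 26837, 341 and 588 at 10 h, and 8814, 5787, 448 and 62.2 at 13 h. It was not called at 10 h (-0.76 ± 0.75, adjusted p = 0.263). At 13 h it was lower than at 10 h in 3 regions and higher in the thorax, -1.80 ± 1.55 (adjusted p = 0.05), a call at the threshold that was lost in 11 of 21 alternatives (adjusted p up to 0.739). Its 9 probes gave mean changes between -2.80 and 1.56 in this step. Yellow-h3 (Px-0430) was also higher in the marked regions and was called in neither step (-0.71 ± 0.72 and -0.07 ± 0.86, adjusted p = 0.122 and 0.923). Ebony (Px-4001), which links dopamine to beta-alanine, gave 13.3, 54.8, 457 and 113 at 4 h, 7729, 294, 467 and 388 at 10 h, and 11730, 557, 10531 and 9004 at 13 h. The eyespot had the lowest signal at 4 h and the highest at 10 h. With an SD of 4.02 between regions the change at 10 h was not called (3.35, adjusted p = 0.0957), nor that at 13 h (2.64 ± 2.17, adjusted p = 0.27).

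White, cinnabar and silver rose at 10 h. White (Px-4073), part of a transporter of pigment precursors in Drosophila, gave 30.3, 11.1, 47.3 and 9.98 at 4 h, 551, 424, 463 and 498 at 10 h, and 1253, 1017, 1631 and 1978 at 13 h. Its rise at 10 h was 4.59 ± 1.06 (adjusted p = 3.26e-05). The 4 h signals were near or below the lowest signals well above background, and the alternatives gave 2.11 to 5.48. The smaller rise at 13 h (1.56 ± 0.40, adjusted p = 0.0304) was lost in 9 of 20 alternatives (adjusted p up to 0.244). Cinnabar (Px-4033), the kynurenine hydroxylase of ommochrome synthesis, was higher at 10 h by 3.10 ± 1.36 (adjusted p = 0.00232), with 1 region well above background at 4 h, and not called at 13 h (1.81 ± 0.57, adjusted p = 0.0657). Silver (Px-4066), a carboxypeptidase whose Drosophila mutants have a silvery cuticle, gave 25.2, 31.1, 38.1 and 44 at 4 h, 96.5, 178, 211 and 197 at 10 h, and 343, 628, 729 and 1280 at 13 h. All regions rose at each step, by 2.27 ± 0.27 (adjusted p = 3.53e-05) and 2.04 ± 0.44 (adjusted p = 0.000421). The 4 h signals of silver were also near or below that limit, and the alternatives gave 0.88 to 2.45 for 10 over 4 h. Of the enzymes that recycle the pterin cofactor of tyrosine hydroxylase, pterin-4a-carbinolamine dehydratase (Px-0366) was higher at 10 h by 2.45 ± 0.25 (adjusted p = 4.81e-06) and lower at 13 h (-0.96 ± 0.27, adjusted p = 0.00397), and this second call was lost without array 2 of 13 h (adjusted p = 0.0547). Dihydropteridine reductase (Px-0240) was lower at 13 h (-1.38 ± 0.18, adjusted p = 0.0301), lost in 10 of 21 alternatives (adjusted p up to 0.143).

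Serpins and serine proteases, which inhibit and carry out proteolysis, had 5 of 10 measured members higher and 1 lower at 10 h, with a median of 1.05, and 1 higher and 2 lower at 13 h, with a median of 0.00. The shares called were 60% and 30%, beside 68.8% and 26.5% of all genes. Serine protease 7 (Px-0314) and a second serine protease (Px-0324) rose by 3.69 ± 0.49 (adjusted p = 2.98e-06) and 3.74 ± 0.65 (adjusted p = 1.02e-05) at 10 h, and serine protease inhibitor 77Ba (Px-0275), a serpin that limits melanization in Drosophila, by 2.98 ± 0.58 (adjusted p = 2.19e-05). For Px-0324 the signals were 36766, 46457, 49635 and 51518 at 10 h, against 4154, 2990, 2112 and 5193 at 4 h. Oviductin (Px-0335) was below background in all regions at 10 h, at least 7.69-fold lower than at 4 h (adjusted p = 4.52e-05).

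Outside the lists, unknown secreted proteins were among the 10 largest named changes in either direction at 10 h. Unknown secreted protein Px-0413 was below background in all regions at 4 h and at least 2020-fold higher at 10 h (adjusted p = 1.91e-07), and Px-0278 at least 1410-fold (adjusted p = 9.54e-10). Px-0134 rose by 11.50 ± 1.69 (adjusted p = 2.47e-06) and Px-0279 by 9.63 ± 0.56 (adjusted p = 2.83e-08). Px-0294 had 17.3 to 24.4 at 10 h, against 12826 to 31528 at 4 h (-9.93 ± 0.69, adjusted p = 6.89e-08), and hypothetical protein Px-0031 fell alike (-9.87 ± 0.44, adjusted p = 2.25e-08), as did unknown secreted protein Px-0017 (-8.78 ± 1.49, adjusted p = 1.6e-05). Among sequences without a name, 9 had rises larger than the tenth named gene, among them AK401825, at least 809-fold, and 5 had larger falls, among them AK403227, at least 404-fold.

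At 13 h the 10 largest named rises included lipase 4, elongase and a gene similar to Drosophila CG12017, all outside the lists. Lipase 4 (Px-0342) gave 11.2, 12.7, 19.8 and 34.3 at 4 h, 88.9, 369, 490 and 891 at 10 h, and 1684, 2577, 9078 and 13101 at 13 h. It was below background at 4 h, at least 8.68-fold higher at 10 h, and rose at 13 h by 3.78 ± 0.68 (adjusted p = 0.000404). Elongase (Px-0252), of a family that lengthens fatty acids, dipped at 10 h and returned, with 13398, 11196, 14429 and 9166 at 4 h, 991, 905, 1230 and 828 at 10 h, and 5438, 7113, 9755 and 14261 at 13 h. Its changes were -3.60 ± 0.12 (adjusted p = 2.21e-05) and 3.13 ± 0.70 (adjusted p = 0.000337). The gene similar to CG12017 (Px-0138) also dipped at 10 h (-6.92 ± 2.04, adjusted p = 9.41e-05). It rose at 13 h by 3.71 ± 1.26 (adjusted p = 0.00973), lost in 3 of 20 alternatives (adjusted p up to 0.083), among them without either 13 h array. Among named genes outside the lists the largest falls were those of a secreted protein (Px-0041), 1194, 1348, 1400 and 823 at 13 h, against 13752, 14399, 8932 and 12544 at 10 h, and of the gene similar to CG17127 (Px-0015). Their changes were -3.39 ± 0.52 (adjusted p = 8.23e-05) and -3.34 ± 0.69 (adjusted p = 0.000169). Among unnamed sequences 23 had rises and 21 had falls larger than the tenth named gene. AK403266 rose by 7.15 ± 1.23 (adjusted p = 7.29e-05), and AK401501 was below background in all regions at 13 h, at least 11.8-fold lower.

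Ribosomal protein genes fell together by a small amount. Of 76 measured, 70 were lower at 10 h than at 4 h and none higher, with a median of -0.51 beside 0.14 over all genes. This is 92.1% of the list, beside 30.2% called lower over all genes. The median was -0.72 without scaling, -0.67 after quantile normalization and -0.54 with the normexp background correction. Their summed signal was 3820897 to 4117843 at 10 h, against 5206838 to 5909426 at 4 h. At 13 h none was called by limma in either direction (1 at an unadjusted p under 0.05), beside 26.5% of all genes, and the median was 0.04. Ribosomal protein S28b (Px-0186) gave 5360, 4782, 4387 and 4298 at 10 h, against 9668, 9507, 9823 and 9249 at 4 h, a difference of -1.03 ± 0.14 (adjusted p = 7.12e-05). Of the 16 muscle markers 5 were higher at 10 h and none lower, 31.2% beside 38.6% higher and 30.2% lower over all genes, with a median of 0.48, and none was called by limma at 13 h (0 at an unadjusted p under 0.05). Muscular protein 20 (Px-0102) gave 97427, 75392, 52870 and 62069 at 10 h, against 5882, 12538, 6335 and 12761 at 4 h (3.00 ± 0.77, adjusted p = 0.000112). Muscle protein 20 (Px-0206) rose by 2.83 ± 0.34 (adjusted p = 4.07e-05), while actin, myosin light chain and troponin genes were not called. The part of muscle in the changes of other genes was not tested.

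Whether black and green epidermis changed differently was tested on the Cy5 to Cy3 ratio of each array, and no gene passed. For 10 over 4 h 0 of 3146 genes were called by limma (0%), with 266 at an unadjusted p under 0.05 and a smallest adjusted p of 0.124. For 13 over 10 h 0 were called (0%), with 185 at an unadjusted p under 0.05 and a smallest adjusted p of 0.148. With 2 arrays per stage the 95% interval of the difference reached 0.67 to either side at its median, so that this does not show equal changes. With the normexp background correction 1 and 12 genes were called. Without array 2 of 4 h 28 genes were called for 10 over 4 h, and without either 4 h array 28 for 13 over 10 h, where 8 were called without array 1 and 1 without array 2 of 13 h. The genes with the smallest p for 10 over 4 h had an excess in the black regions at 4 h that was smaller at 10 h. Px-0418 and Px-0123, both named ejaculatory bulb protein III, had log2 ratios of black over green of 0.73 and 0.13, and of -0.08 and 0.11, on the arrays of 10 h, against 3.57 and 2.83, and 3.68 and 3.12, on those of 4 h (adjusted p = 0.124 for both). PxutCPT5 (Px-0218) had ratios of 0.08 and -0.05 at 10 h, against 5.98 and 4.79 at 4 h. It was below background in all regions at 10 h, so these later ratios are not measured sizes. PxutCPT4 (Px-0225) had 1.22 and 0.92 at 10 h, against 3.22 and 2.80 at 4 h.

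For 13 over 10 h the smallest p belonged to genes whose ratios turned round. Glucosyl/glucuronosyl transferase (Px-0380) had log2 ratios of black over green of 6.03 and 4.80 at 13 h, against -3.65 and -4.81 at 10 h, a difference of 9.65 (95% interval 7.40 to 11.89, adjusted p = 0.148). The unnamed sequence AK402828 had the largest difference of these genes, 12.83. They belong to 16 genes, found after their values were seen, that were at least 8-fold higher in the abdomen than in the 3 other regions at 4 and at 10 h, and at least 8-fold higher in both marked regions than in both plain regions at 13 h. Their median signals were 18.9 in the eyespot, 98.8 in the V-shaped marking, 24.9 in thorax and 6720 in abdomen at 4 h. At 10 h the medians were 15.0, 53.2, 95.8 and 3340 in this order of regions, and at 13 h they were 2250, 1140, 13.8 and 27.6. None of the 16 was called for either step over the 4 regions. The rule that chose them sets the changes of abdomen and marked regions far apart for 13 over 10 h. A test of the mean over the regions could therefore hardly call them in that step. At 13 h Px-0220 gave 110730, 104938, 2624 and 4113, higher in both marked regions than in both plain regions, and so was yellow. Both genes separate marked from plain regions only, not thorax from abdomen or eyespot from V-shaped marking. Collagen IV and sparc were highest in the abdomen at 4 and 10 h and in the V-shaped marking at 13 h. Whether the tissue labels at 13 h hold for every channel was not tested. Without the 16 genes, r between eyespot and abdomen across genes for 13 over 10 h was 0.653 in place of 0.366. They were chosen for a difference between these regions, so a rise of r follows from the choice.

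**Figure D5:**
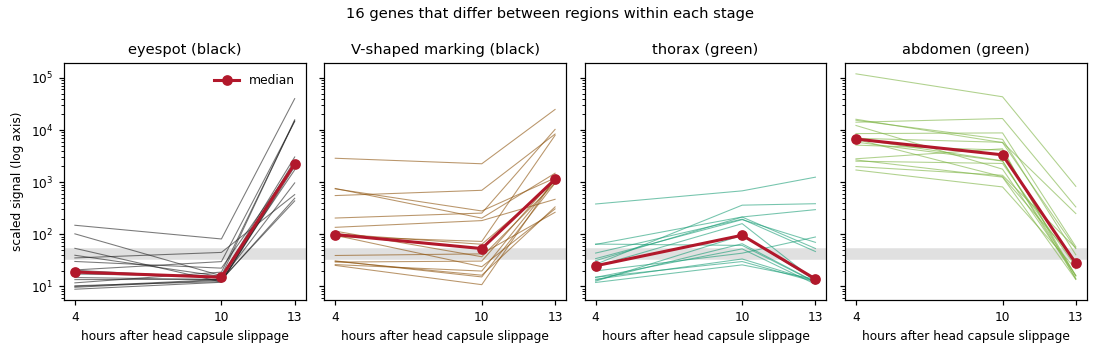
Scaled signal (log axis) of the 16 genes in each region at 4, 10 and 13 h, 1 thin line per gene and the median in red, with the grey band as for the hormone genes. The median is high in the abdomen at 4 and 10 h (6720 and 3340) and in the eyespot and V-shaped marking at 13 h (2250 and 1140), and low in the thorax at all 3 stages.

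The third molt, measured on the same slide with 1 array at 8 h and 1 at 11 h, gave a description of younger larvae at other hours, with no replicate. Of the 322 genes called higher at 13 h than at 10 h in the fourth molt, 195 (60.6%) were higher at 11 h than at 8 h in both the black and the white epidermis of the third molt, against 49.8% of all genes. Of the 511 called lower, 240 (47.0%) were lower in both, against 35.0% of all genes. Signals of single genes are given beside these counts, the first one close to background on both arrays. PxutCPG29 (Px-4012) had 13 in black and 13.2 in white epidermis at 11 h, against 8.95 and 7.82 at 8 h. Chitinase 7 (Px-0164) had 74.9 in black and 83.7 in white epidermis at 11 h, against 96.4 and 113 at 8 h. The takeout/JHBP like protein Px-0207 had 831 in black and 411 in white epidermis at 11 h, against 13.8 and 12.6 at 8 h. E75A (Px-4044) had 53.4 in black and 85.8 in white epidermis at 11 h, against 222 and 228 at 8 h. Osiris 18 (Px-0237) had 111 in black and 401 in white epidermis at 11 h, against 41121 and 51158 at 8 h. The stages of the molts are not matched in hours and no difference between them was tested.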

How the data were processed

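RNA of marked and unmarked epidermis was labelled with Cy5 and Cy3 and hybridized to Agilent arrays of 60 bases per probe, and per the file headers the spot intensities were extracted with Agilent Feature Extraction 9.5.3.1, which subtracted the background and corrected the dye bias within each array. These deposited processed intensities of 6 arrays were used, with the Cy5 and Cy3 channels of an array as separate samples. The deposited series table holds log10 ratios of Cy5 over Cy3 made by the authors, which lay within 0.00409 of the ratio of the processed signals where not 0 (6.89% were 0), with column medians of -0.00232 to 0. It was used as an alternative only.

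Of 15208 probes, the 8697 of P. xuthus sequences were read. Probes well above background in at least 4 of the 12 channels were kept (7513, for 3146 of 3380 sequences), 50 spots with outlier flags were left out, and channels were scaled to one 75th percentile (2590 to 3390 before scaling, factors of 0.85 to 1.11). Log2 signals were averaged over the probes of a gene. Names came from the study's lists of genes for 470 sequences and from a match of values with its probe table for 33. All other sequences are unnamed here, also where the paper names them. Stages were compared with limma 3.58.1 (R 4.3.3, statmod 1.5.0) with the region as a term and the array as a random block (correlation 0.22), with Benjamini-Hochberg adjustment over 3146 genes. The difference between black and green was tested on log2 ratios with 2 arrays per stage. With 4 regions the smallest exact two-sided p of a single gene would be 0.125. A gene below background in all 4 regions of a stage has only a bound, the mean of the brighter stage against the higher of its own signal and the lowest signal well above background. Precision is limited by having 2 arrays per stage.

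The replicate number of an array marks the body part, and the deviations of same-numbered samples correlated with r of 0.492, 0.392 and 0.192 for 10 and 4 h, 13 and 10 h, and 13 and 4 h. The region term holds this pairing. On simulated data, with far fewer changed genes than were called here, the fit called most of the changed genes. The estimated correlation within arrays came out lower than the true one, and the share of false calls was somewhat above the nominal one. Named genes are the 10 largest changes per comparison and direction among called genes with a name and 1 sign in all regions, up to 4 members per list (all members of the hormone, pigment and pigment-binding lists), and up to 5 genes per comparison of black and green. Members and lists were chosen with earlier results of these data known. Alternatives changed the scaling, the background correction, the filter on dim probes, a floor, the averaging of probes, the blocks, and left out each region or array. Figures were drawn with Python 3.11.15 (numpy 2.4.6, pandas 2.3.3, matplotlib 3.10.9). The third molt was used only as a description, and the 8 arrays of the other slide were not used here.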

Additional observations from a re-analysis of the deposited data

Results flagged for a closer look

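In 8 of 222 sets of 4 regional changes (3.6%) 1 region stood apart from the others, where chance alone marks about 1 in 20. Of the pigment-binding genes, Px-0019 rose by 5.17 in the V-shaped marking at 10 h, beside 4.00 to 4.11 in the other regions. Of the cuticular genes, PxutCPG19C (Px-0222) rose by 6.01 in the abdomen at 13 h, beside 5.07 to 5.17. Lipase 4 (Px-0342) rose by 2.99 in the eyespot at 10 h, beside 4.63 to 4.87. Silver (Px-4066) rose by 2.70 in the abdomen at 13 h, beside 1.79 to 1.83, and the serine protease Px-0324 by 0.96, beside 0.80. Yellow-h2 (Px-0429) changed by -2.21 in the eyespot at 13 h, beside -2.54 to -2.50, ribosomal protein L39 (Px-0389) by -1.20 in the thorax at 10 h, beside -0.94 to -0.90, and Z band alternatively spliced PDZ-motif protein 66 (Px-0125) by 0.26 in the thorax at 13 h, beside -0.59 to -0.45.

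For 8 of the 111 named genes both thoracic regions moved one way and both abdominal regions the other, 2 at 10 h (1.8%) and 6 at 13 h (5.41%), beside 4.87% and 7.83% of all genes, and several of these moves were near 0. These differences were not tested. The mean change of eyespot and thorax minus that of V-shaped marking and abdomen was -2.08 for hormone receptor 4 (Px-4055) and 1.74 for PxutCPH18 (Px-0317) at 10 h. At 13 h it was -1.30 for Kruppel homolog 1 (Px-4059), -0.68 for AK403227, which was below background at both stages, -0.51 for PxutCPT1 (Px-0067), -0.43 for bilin binding protein 1 (Px-0010), 0.46 for muscle specific protein 300 (Px-4062) and -0.15 for ribosomal protein L29 (Px-0388). Hormone receptor 4 changed by -1.64 in the eyespot and -1.92 in the thorax, and by 0.33 in the V-shaped marking and 0.28 in the abdomen.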

How the results depend on the processing

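Scaling, background, filters, blocks and left-out regions or arrays kept the counts for 10 over 4 h within 1.5 times of 1214 higher and 950 lower genes, between 977 and 1305 higher and between 772 and 1118 lower, with more lower than higher genes without scaling (1015 higher, 1106 lower) and after quantile normalization (1005 and 1118). For 13 over 10 h the 511 lower genes became 326 with the normexp background correction and 295 on array means with the replicate block. Leaving out 1 region gave 197 to 376 higher and 279 to 648 lower genes, and leaving out 1 array gave 186 to 554 higher and 267 to 882 lower. Leaving out an array leaves 1 array of its stage, which is then assumed to vary like the others. With no replicate block, that is without pairing by region, 1098 were higher and 875 lower at 10 h, and 258 higher and 360 lower at 13 h. On array means with the replicate block the other counts were 1069, 837 and 220. The 0 genes that differed between black and green became 1 for 10 over 4 h and 12 for 13 over 10 h with normexp, and 0 to 28 for each without 1 array, while the deposited log10 ratios, an alternative chosen after seeing the data, gave 0 and 0. Of 4574 alternative values of 111 named genes, 4226 kept their side of the threshold, 237 lost and 109 gained a call. A turn of sign was counted only where the main or the alternative value was called, so uncalled values among the 4226 can differ in sign. By that rule 2 values turned in sign, both for 10 over 4 h. Muscle specific protein 300 (Px-4062) turned to -0.10 with probes well above background in all 12 channels. Ultrabithorax (Px-4070) turned to -0.46 with no filter on dim probes. The causes were not tested. Genes near background have fitted values that the floor and the filter move, so that only bounds are given where a whole stage was dim.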

Other observations

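Of the 4 haemocyte or fat body markers 1 was called lower at 10 h than at 4 h and none at 13 h, with medians of -1.18 and -0.27. Over all genes 68.8% were called at 10 h and 26.5% at 13 h. Their summed signal was 15213 to 54346 at 4 h, 6675 to 20115 at 10 h and 5308 to 19147 at 13 h over the 4 regions. Collagen IV (Px-0251) and sparc (Px-0101), proteins of the basement membrane, had their highest signals in the abdomen at 4 and 10 h and in the V-shaped marking at 13 h. Collagen IV gave 15843, 17388, 11113 and 42042 at 4 h, 4849, 11128, 4823 and 15574 at 10 h, and 4048, 14720, 8120 and 3857 at 13 h in eyespot, V-shaped marking, thorax and abdomen.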
